A study of Mus musculus with 6 samples.

Results

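Transcripts of 9 genes of the liver X receptor (LXR) pathway and of cholesterol efflux were described in macrophages with and without FOXO3: the receptor genes Nr1h3 and Nr1h2, the exporters Abca1 and Abcg1, the secreted proteins Apoe, Apoc2 and Pltp, and the enzymes Lpcat3 and Mylip. The 9 genes were chosen by symbol, and each symbol matched 1 row of the deposited table, which holds 54648 symbols. All 9 passed the filter on low counts and were tested among 15608 genes. RNA-seq was made from peritoneal cells of C57BL/6 mice aged 6 to 8 weeks, after thioglycollate, an irritant that draws monocytes into the abdomen, where they become macrophages. The wildtype (WT) group and the FOXO3 knockout (FOXO3 KO) group each have 3 libraries, labelled WT 1 to 3 and FOXO3 KO 1 to 3. Both groups shared the strain, the age, a standard chow diet and the thioglycollate, and differed in the Foxo3 genotype alone as far as labels and methods state. Genotypes were assigned by typing littermates of both sexes, the allele was not limited to macrophages in the description given, and the harvested cells were not sorted. The labels number the libraries without naming the mouse behind each, so every p-value below measures the spread between these libraries, which may in part be technical.

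LXRα and LXRβ are nuclear receptors that sit on DNA with a retinoid X receptor and are switched on by oxysterols, which build up when a cell holds excess cholesterol. In macrophages they turn on a programme that moves cholesterol out of the cell: ABCA1 passes cholesterol and phospholipid to lipid-poor apolipoprotein A-I, ABCG1 passes it to HDL particles, and apolipoprotein E carries lipid away. The same programme limits further uptake through MYLIP, also called IDOL, and reshapes membrane phospholipids through LPCAT3. FOXO3 is a forkhead transcription factor, and the comparison asks whether its loss altered the transcripts of this pathway.

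Library totals ran from 28083572 to 36424331 counts, and levels are in CPM, that is, counts brought to a common library size with TMM factors. Foxo3 stood at 117, 107 and 73.1 CPM in WT 1, WT 2 and WT 3, and at 4.71, 104 and 4.29 CPM in FOXO3 KO 1, FOXO3 KO 2 and FOXO3 KO 3. The library labelled FOXO3 KO 2 therefore held Foxo3 transcript at the WT level, against its label, and it is called by its label throughout. Over all 6 libraries the Foxo3 log2 fold change was -1.40 with edgeR (SE 1.22, adjusted p = 0.859). Without the library labelled FOXO3 KO 2 it was -4.46 with edgeR (SE 0.29, adjusted p = 0.105, 16217 genes tested). DESeq2 without that library also gave -4.46, with an adjusted p of 1.86e-38. The size of the Foxo3 difference was thus alike with both tools, while its adjusted p depended on the tool. WT 3 also stood apart: resident peritoneal macrophage markers summed to 6277 CPM there and to between 144 and 540 CPM in the other libraries, and B cell markers to 5998 CPM against 364 to 1540 CPM. The 12 macrophage markers, all of them detected in every library, summed to 15206 CPM in WT 3 and to between 17068 and 20252 CPM elsewhere, so the labelled cell type was present in all libraries. Xist, an RNA made from the inactive X chromosome of females, was at 871 CPM in WT 3 and 1130 CPM in FOXO3 KO 3 and at most 0.177 CPM in the other libraries. These are bulk samples, so fewer cells of a type and less RNA per cell cannot be told apart.

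None of these 9 genes was called between the groups over all 6 libraries. With calls made where the fold change was above 1.5 and the adjusted p below 0.05, 0 of the 9 genes and 0% of the 15608 genes tested were called by the quasi-likelihood test of edgeR. At an unadjusted p under 0.05 the counts were 0 of 9 and 5.68% of all genes. DESeq2 called 160 genes, 0.89% of those it gave an adjusted p, and none of the 9, while limma-voom called 0 genes, with 0 of the 9 and 5.22% of all genes at an unadjusted p under 0.05. The median log2 fold change of the 9 genes was -0.04, beside -0.01 over all genes tested, with 3 genes higher and 6 lower in FOXO3 KO. In no gene were the 3 WT and the 3 FOXO3 KO values without overlap, which was the case for 12.4% of all genes. The wider spread was that of the WT group, in which WT 3 was the lowest of all 6 libraries for 6 of the 9 genes, beside 37.5% of all genes.

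**Figure D1:**
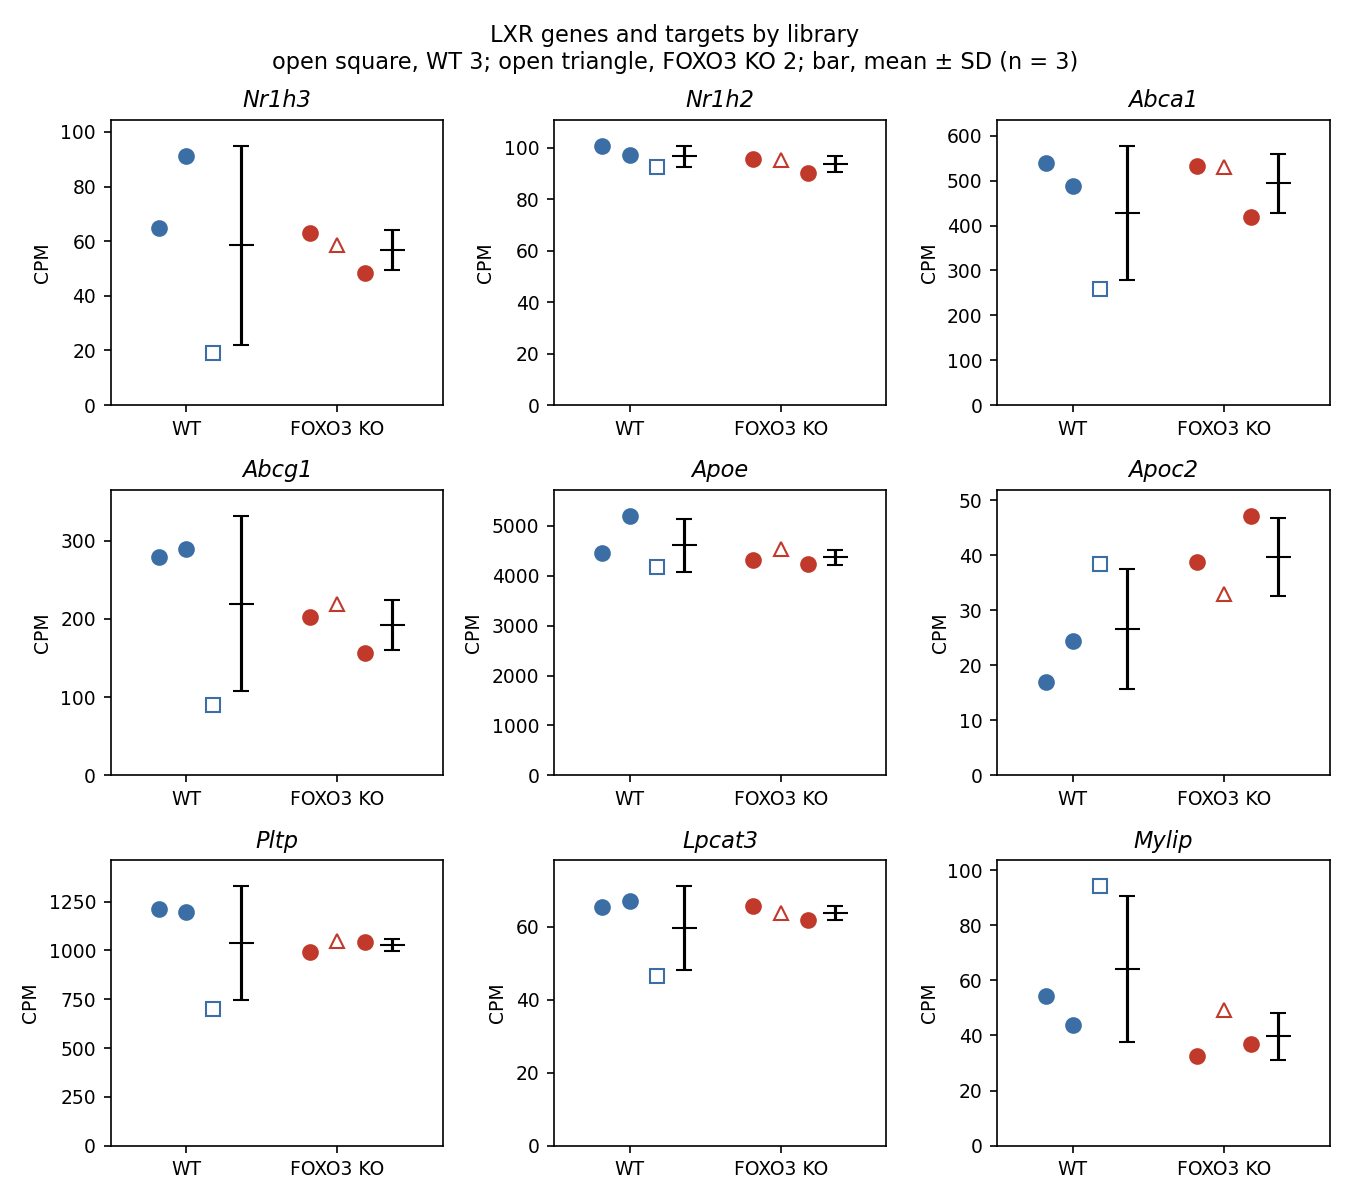
Expression of the 9 genes in CPM (vertical axes, from 0) in each WT and FOXO3 KO library, with the mean ± SD of each group (n = 3) as a bar at the right of its points. WT 3 (open square) lies apart from WT 1 and WT 2 for Nr1h3, at 19.1 CPM against 64.9 and 91.4 CPM, and for Mylip, at 94.2 CPM against 54.2 and 43.9 CPM, while the FOXO3 KO points, including the library labelled FOXO3 KO 2 (open triangle), spread over a smaller range than the WT points.

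The 2 receptor genes behaved differently across the libraries. Nr1h3 (chromosome 2, 91184061 to 91202834 of GRCm38, minus strand) encodes LXRα, the form enriched in liver, adipose tissue and macrophages. Its level was 64.9, 91.4 and 19.1 CPM in WT 1, WT 2 and WT 3, and 63.0, 58.7 and 48.5 CPM in FOXO3 KO 1, 2 and 3. The WT values held both the highest and the lowest of the 6, and all FOXO3 KO values lay between them. Means were 58.5 ± 36.5 CPM in WT and 56.8 ± 7.46 CPM in FOXO3 KO (SD, n = 3), a log2 fold change of -0.04 (SE 0.51, 95% confidence interval -1.29 to 1.20, adjusted p = 0.988). Without WT 3 it was -0.45 (95% confidence interval -0.87 to -0.03, unadjusted p = 0.0391, adjusted p = 0.562), and all 3 FOXO3 KO values were then below both WT values. That count of libraries includes the one labelled FOXO3 KO 2, in which Foxo3 was at the WT level.

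Nr1h2 (chromosome 7, 44549616 to 44553951, minus strand) encodes LXRβ, the form present in nearly all tissues. It was measured at 101, 96.9 and 92.3 CPM in WT 1, WT 2 and WT 3, and at 95.4, 95.2 and 90.0 CPM in FOXO3 KO 1, 2 and 3. The libraries hardly differed, with a highest value 1.12 times the lowest and a coefficient of variation of 3.86% over the 6 libraries, the smallest of the 9 genes, against 41.0% for Nr1h3. Its log2 fold change was -0.05 (SE 0.09, 95% confidence interval -0.26 to 0.17, adjusted p = 0.913). This interval is the narrowest of the 9 and runs from a 0.835-fold to a 1.12-fold level in FOXO3 KO, with the library labelled FOXO3 KO 2 included. Without that library, in which Foxo3 was at the WT level, the interval ran from 0.777-fold to 1.19-fold. The ratio of Nr1h3 to Nr1h2 counts was 0.645, 0.943 and 0.207 in WT 1, 2 and 3 and 0.661, 0.616 and 0.539 in FOXO3 KO 1, 2 and 3 (two-sided exact permutation test, p = 0.9, where the smallest p that 3 against 3 can give is 0.1).

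Abca1 and Abcg1, the exporter genes, are taken as the standard readout of LXR activity in macrophages. Of the promoters searched for the 9 genes, that of Abca1 alone held a looser form of the LXR element, so it is shown here. LXR with its partner binds 2 copies of AGGTCA spaced by 4 bases (DR4, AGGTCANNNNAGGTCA). The windows searched, on both strands, ran from 250 bases before to 50 after each RefSeq start (GRCm38.p6). They covered 8 of the 9 genes with 11 windows, and there was none for Abcg1. A looser form of the element, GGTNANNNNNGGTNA, which every perfect DR4 also contains, was found in 0.718% of 32851 windows. It occurred in the Abca1 window and, of the other pathway genes listed further on, in those of Srebf1, the transcription factor gene of fatty acid synthesis, and Fasn, fatty acid synthase. The stretches of Abca1 (chr4:53159908-53160002, minus strand) and Srebf1 (chr11:60210599-60210693, minus strand) follow, 5′ to 3′ on the strand of the gene, with capitals for the element, which reads on the opposite strand.
Abca1: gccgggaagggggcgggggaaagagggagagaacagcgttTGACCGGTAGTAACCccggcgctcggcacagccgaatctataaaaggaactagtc
Srebf1: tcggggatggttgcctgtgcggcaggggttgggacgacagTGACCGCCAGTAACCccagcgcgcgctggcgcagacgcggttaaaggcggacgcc
In Abca1 the element lay 67 to 53 bases before the start, and in Srebf1 182 to 168 bases before the third of its listed starts. The perfect DR4 was in 0.0152% of all windows and in none of those of the 8 genes searched. The single copy AGGTCA, which the DR4 contains, was in 16.3% of windows and among the 8 genes searched in that of Apoc2 alone. The forkhead motif TGTTTAC was in 3.65% of windows and in 1 Apoe window. These matches describe letters, and no match says only that the letters are not in the window searched.

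Abca1 (chromosome 4, 53030787 to 53159895, minus strand) stood at 539, 489 and 258 CPM in WT 1, WT 2 and WT 3, and at 533, 531 and 418 CPM in FOXO3 KO 1, 2 and 3. All but 1 of the 6 libraries lay between 418 and 539 CPM and WT 3 alone was far below. The means, 428 ± 150 CPM in WT and 494 ± 65.4 CPM in FOXO3 KO (SD, n = 3), gave a log2 fold change of 0.21 (SE 0.29, 95% confidence interval -0.51 to 0.92, adjusted p = 0.896). Without WT 3 the direction turned, to -0.05 (95% confidence interval -0.37 to 0.28, adjusted p = 0.96), so the higher FOXO3 KO mean rested on that 1 library. Srebf1, which carries the similar element, was at 75.4, 70.2 and 61.4 CPM in WT 1, 2 and 3 and at 60.1, 65.3 and 61.7 CPM in FOXO3 KO 1, 2 and 3, a log2 fold change of -0.15 (adjusted p = 0.852). Without WT 3 the log2 fold change of Srebf1 was -0.21 (95% confidence interval -0.40 to -0.02, unadjusted p = 0.034, adjusted p = 0.552). Fasn, which also carries the looser form, was highest in WT 3, at 22.2, 13.0 and 69.5 CPM in WT 1, 2 and 3. In FOXO3 KO 1, 2 and 3 it was at 18.4, 25.4 and 33.1 CPM. Its log2 fold change was -0.45 (adjusted p = 0.893), and 0.55 without WT 3 (adjusted p = 0.715).

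Abcg1 (chromosome 17, 31057675 to 31117988, plus strand) was at 280, 289 and 90.4 CPM in WT 1, WT 2 and WT 3, and at 202, 219 and 156 CPM in FOXO3 KO 1, 2 and 3. WT 1 and WT 2 were the 2 highest libraries and WT 3 the lowest, with all FOXO3 KO values in between. Its log2 fold change was -0.19 (SE 0.43, 95% confidence interval -1.24 to 0.85, adjusted p = 0.927). Without WT 3 the WT mean was 284 ± 6.88 CPM (SD, n = 2) against 192 ± 32.4 CPM (SD, n = 3), a log2 fold change of -0.55 (95% confidence interval -0.90 to -0.21, unadjusted p = 0.00777, adjusted p = 0.513). DESeq2 without WT 3, a fit added after the data were seen, gave -0.57, a 1.49-fold lower level, with an adjusted p of 0.0507. Neither the limit on fold change nor that on the adjusted p was met. The FOXO3 KO values were thus lower than WT 1 and WT 2 in 3 of 3 libraries, the library labelled FOXO3 KO 2 among them, and higher than WT 3 in 3 of 3. The ratio of Abca1 to Abcg1 was 1.93, 1.69 and 2.85 in WT 1, 2 and 3 and 2.64, 2.43 and 2.68 in FOXO3 KO 1, 2 and 3 (two-sided exact permutation test, p = 0.4), with WT 3 again beyond the FOXO3 KO range and the other WT libraries below it.

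**Figure D2:**
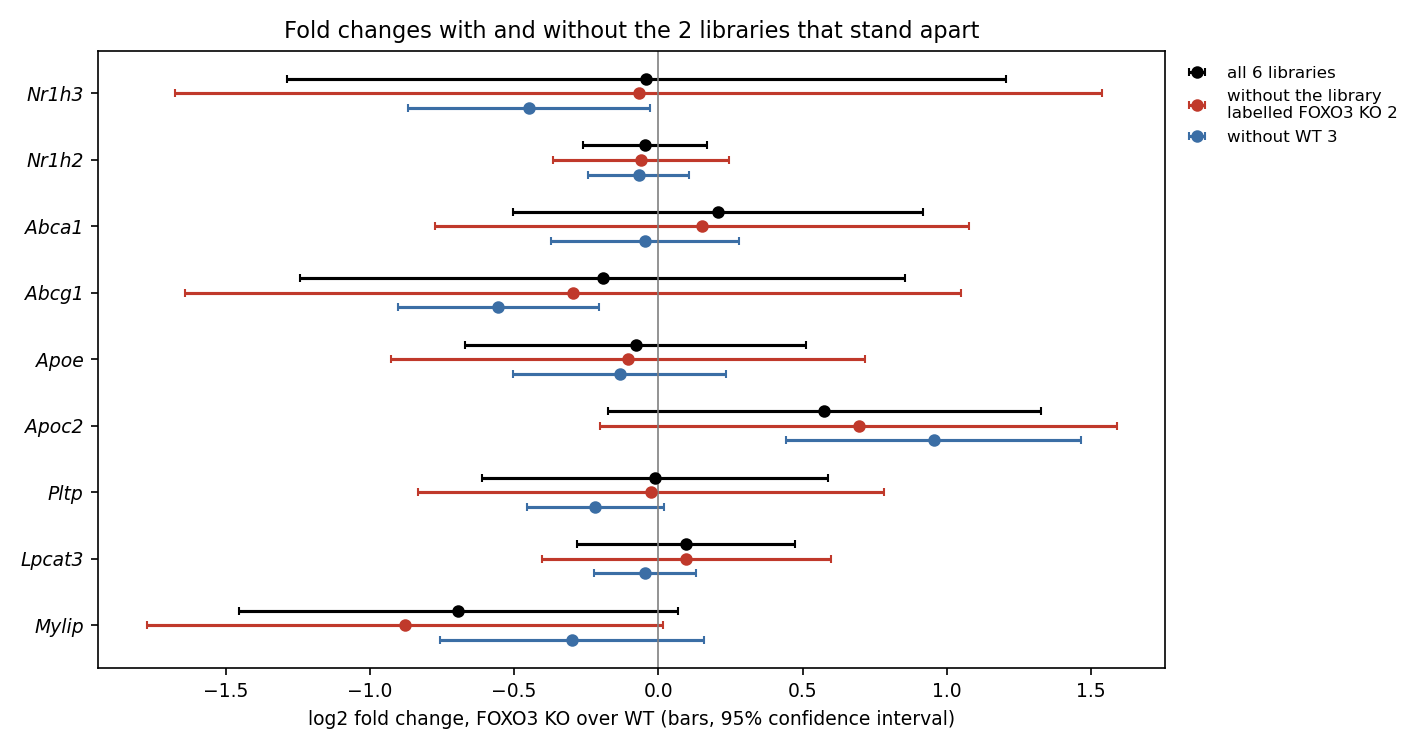
Log2 fold change of each gene, FOXO3 KO over WT, with its 95% confidence interval from edgeR (horizontal axis), for all 6 libraries, without the library labelled FOXO3 KO 2 and without WT 3. All intervals cover 0 over 6 libraries, and without WT 3 those of Nr1h3 (-0.87 to -0.03), Abcg1 (-0.90 to -0.21) and Apoc2 (0.44 to 1.46) do not.

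Of the secreted proteins, Apoe was level and Apoc2 was the gene with the highest FOXO3 KO to WT ratio. Apoe (chromosome 7, 19696109 to 19699188, minus strand), the main apolipoprotein of macrophages, was at 4451, 5199 and 4177 CPM in WT 1, WT 2 and WT 3, and at 4319, 4537 and 4240 CPM in FOXO3 KO 1, 2 and 3. All FOXO3 KO values lay inside the WT range, and the highest value was 1.24 times the lowest. The log2 fold change was -0.08 (SE 0.24, 95% confidence interval -0.67 to 0.51, adjusted p = 0.949).

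Apoc2 (chromosome 7, 19671579 to 19677941, minus strand), in the same gene cluster, encodes the cofactor that lipoprotein lipase needs. It was at 17.0, 24.4 and 38.5 CPM in WT 1, WT 2 and WT 3, and at 38.8, 33.0 and 47.1 CPM in FOXO3 KO 1, 2 and 3. WT 1 and WT 2 were the lowest libraries, while WT 3 lay inside the FOXO3 KO range. Means of 26.6 ± 10.9 and 39.7 ± 7.11 CPM (SD, n = 3) gave a log2 fold change of 0.58 (SE 0.31, 95% confidence interval -0.18 to 1.33, unadjusted p = 0.111, adjusted p = 0.839). Without the library labelled FOXO3 KO 2 the groups had no overlap, 43.0 ± 5.87 CPM (SD, n = 2) against the same WT mean, at a log2 fold change of 0.69 (unadjusted p = 0.104, adjusted p = 0.994). Without WT 3 the difference was 0.95 (95% confidence interval 0.44 to 1.46, unadjusted p = 0.00359, adjusted p = 0.50). DESeq2 without WT 3, added after the data were seen, gave 0.93 with an adjusted p of 0.0051, which made Apoc2 the 1 of 9 genes called in any fit, beside 1.09% of all genes in that fit. The call thus rested on leaving out WT 3 and on the tool together. Reads of Apoc2 may be shared with Gm44805, a read-through gene on the same strand, which was itself at 0.225 CPM. Apoe exceeded Apoc2 263, 213 and 109 times in counts in WT 1, 2 and 3, and 111, 138 and 90.0 times in FOXO3 KO 1, 2 and 3 (two-sided exact permutation test, p = 0.3).

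Pltp (chromosome 2, 164839518 to 164857711, minus strand) encodes phospholipid transfer protein, which moves phospholipid between lipoproteins. Its values were 1215, 1197 and 700 CPM in WT 1, WT 2 and WT 3, and 993, 1050 and 1043 CPM in FOXO3 KO 1, 2 and 3. The FOXO3 KO libraries lay within a narrow band, below WT 1 and WT 2 and above WT 3, with a SD of 31.0 CPM against 292 CPM in WT. The log2 fold change was -0.01 (SE 0.25, 95% confidence interval -0.61 to 0.59, adjusted p = 0.993), and -0.22 without WT 3 (unadjusted p = 0.0645, adjusted p = 0.623). Pltp overlaps Ctsa, a lysosomal protease gene on the opposite strand with a mean of 1193 CPM, and since no source used here says whether counting used strand, reads in the overlap cannot be told apart.

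The enzyme genes differed in spread, with a coefficient of variation over the 6 libraries of 12.5% for Lpcat3 and 42.8% for Mylip. Lpcat3 (chromosome 6, 124663027 to 124704418, plus strand) places polyunsaturated fatty acids into membrane phospholipids. It was at 65.4, 67.2 and 46.4 CPM in WT 1, WT 2 and WT 3, and at 65.7, 63.8 and 61.8 CPM in FOXO3 KO 1, 2 and 3. All libraries but WT 3 lay between 61.8 and 67.2 CPM. The log2 fold change was 0.10 (SE 0.16, 95% confidence interval -0.28 to 0.47, adjusted p = 0.904), and it turned to -0.05 without WT 3 (95% confidence interval -0.22 to 0.13). Lpcat3 overlaps Emg1, a ribosome assembly gene on the opposite strand at a mean of 43.2 CPM, with the same limit on telling reads apart.

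Mylip (chromosome 13, 45389742 to 45412022, plus strand) encodes a ubiquitin ligase that marks lipoprotein receptors for breakdown. Its level was 54.2, 43.9 and 94.2 CPM in WT 1, WT 2 and WT 3, and 32.6, 49.3 and 37.0 CPM in FOXO3 KO 1, 2 and 3. WT 3 was by far the highest library, and FOXO3 KO 1 and 3, the libraries that lacked most Foxo3 transcript, were the lowest, with the library labelled FOXO3 KO 2 inside the WT range. The means, 64.1 ± 26.6 and 39.6 ± 8.67 CPM (SD, n = 3), gave the lowest FOXO3 KO to WT ratio of the 9 genes, a log2 fold change of -0.69 that did not pass the test (SE 0.31, 95% confidence interval -1.45 to 0.07, unadjusted p = 0.0675, adjusted p = 0.839). Without the library labelled FOXO3 KO 2 it was -0.88 (unadjusted p = 0.053, adjusted p = 0.994), with no overlap between 34.8 ± 3.06 CPM (SD, n = 2) and the WT values. The value was -0.30 without WT 3 (95% confidence interval -0.76 to 0.16, unadjusted p = 0.162). DESeq2 over all 6 libraries gave an unadjusted p of 0.0452 and an adjusted p of 0.598.

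Taken per kilobase of exon, Apoe was the most abundant of the 9 transcripts, at a mean of 2441 CPM per kb, followed by Pltp at 439 CPM per kb. Both steps were larger than the spread between libraries, since the lowest Apoe value (2273 CPM per kb) was above the highest Pltp value (516 CPM per kb), and the lowest Pltp value (297 CPM per kb) above every other gene. The remaining 7 genes followed in the order Nr1h2 (47.4), Abca1 (44.9), Apoc2 (40.8), Abcg1 (30.2), Lpcat3 (27.1), Nr1h3 (26.8) and Mylip (16.0 CPM per kb). Each of these overlapped the next in order over the 6 libraries. In plain CPM, Apoe made up between 65.6% and 75.7% of the summed counts of the 9 genes, and the highest share was that of WT 3.

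**Figure D3:**
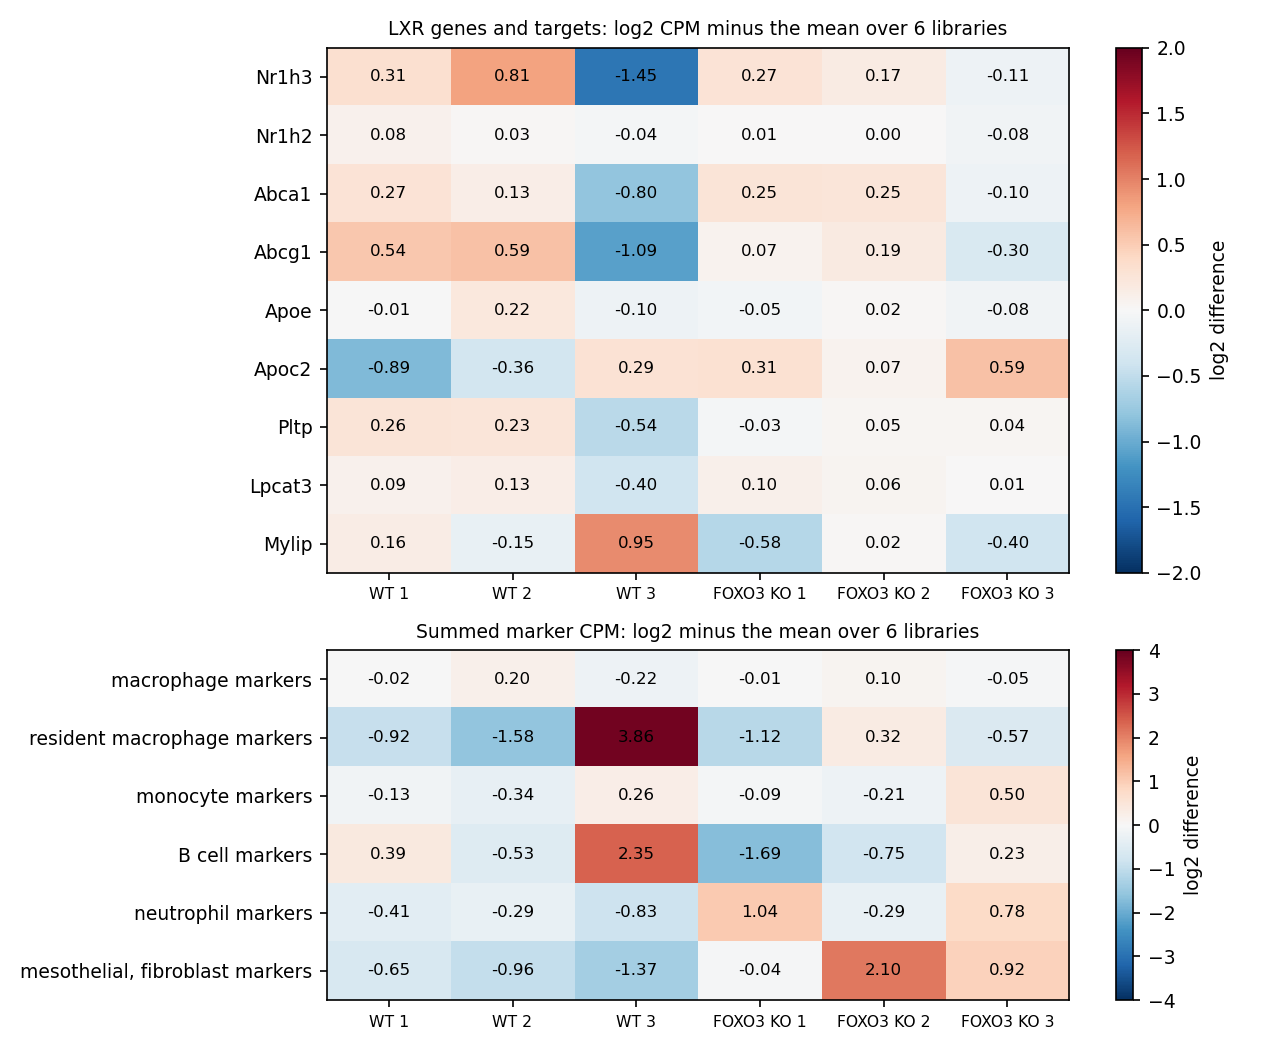
Upper panel, log2 CPM of the 9 genes in each library minus the mean over the 6 libraries; lower panel, the same for the summed CPM of marker genes of each cell type (colour scales and printed values in log2 units). The WT 3 column holds the values farthest from 0, from -1.45 for Nr1h3 to 0.95 for Mylip, and its resident macrophage and B cell markers are the highest.

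WT 3 set the range of most of the 9 genes. Against the geometric mean of the other 5 libraries, it was lower for Nr1h3 (3.34-fold), Abcg1 (2.47-fold), Abca1 (1.94-fold), Pltp (1.57-fold) and Lpcat3 (1.39-fold), and higher for Mylip (2.21-fold) and Apoc2 (1.28-fold). Apoe and Nr1h2 were within 1.09-fold. Of the 9 genes, 5 were more than 1.5-fold away, beside 35.8% of all genes. WT 3 was the lowest library for 6 of the 9, beside 37.5% of all genes, and the highest for Mylip alone, beside 37.2%. The summed macrophage markers of WT 3 were 15206 CPM against 17068 CPM in the next lowest library. What part the number of macrophages, the resident macrophages and the B cells of WT 3 had in the values of the 9 genes was not tested.

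The spread was smaller among FOXO3 KO than among WT libraries for 9 of 9 genes, beside 76.9% of all genes, in which WT 3 was likewise the lowest or highest of the 6 libraries for 74.7%. Without WT 3, 8 of the 9 genes were lower and Apoc2 was higher in FOXO3 KO. At an unadjusted p under 0.05 stood 3 of the 9 (Abcg1, Nr1h3 and Apoc2), beside 8.41% of all genes, and at the call rule 0 of 9, beside 0%. The groups were then without overlap for 5 of the 9 (Abcg1, Nr1h2, Nr1h3 and Pltp lower, Apoc2 higher), beside 25.3% of all genes. Without the library labelled FOXO3 KO 2 instead, they were without overlap for 2 of the 9 (Apoc2 higher, Mylip lower), beside 20.1% of all genes, and 0 of 9 had an unadjusted p under 0.05, beside 4.3%. That library lay between FOXO3 KO 1 and FOXO3 KO 3 for 4 of the 9 genes, beside 41.9% of all genes. Leaving out both libraries, a choice made after seeing the data, put 3 of the 9 genes at an unadjusted p under 0.05, beside 8.87% of all genes, with log2 fold changes of -0.67 for Abcg1 (unadjusted p = 0.0055), 1.06 for Apoc2 (unadjusted p = 0.00247) and -0.50 for Mylip (unadjusted p = 0.0166), all with an adjusted p of at least 0.25.

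The libraries also split by Xist, with 1 library of each genotype, WT 3 and FOXO3 KO 3, on the high side. Among the WT libraries, this split and the state of WT 3 cannot be told apart. In FOXO3 KO 3, resident macrophage markers summed to 291 CPM and B cell markers to 1382 CPM, against 6277 and 5998 CPM in WT 3. Among the low-Xist libraries (WT 1 and WT 2 against FOXO3 KO 1 and the library labelled FOXO3 KO 2), the difference in mean log2 CPM, FOXO3 KO minus WT, was -0.44 for Abcg1, -0.34 for Nr1h3, -0.24 for Pltp, -0.28 for Mylip and 0.05 for Abca1. Between FOXO3 KO 3 and WT 3, it was 0.79 for Abcg1, 1.34 for Nr1h3, 0.58 for Pltp, -1.35 for Mylip and 0.70 for Abca1. For the other genes the pairs of values, low then high, were 0.82 and 0.29 for Apoc2, -0.03 and 0.41 for Lpcat3, -0.12 and 0.02 for Apoe, and -0.05 and -0.04 for Nr1h2. Abca1, Apoc2, Mylip and Nr1h2 thus kept 1 direction in both, and Abcg1, Nr1h3, Pltp, Lpcat3 and Apoe did not. With 1 library of each genotype on the high side, these values are given as a description. A fit of the difference between the sides was made, but its p-values are not given, since the high side has no spread within a genotype.

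Around the 9 genes, 71 genes of the same pathway were looked up in 7 lists by role, and 63 were tested. None was called by edgeR, and 6 were higher and 1 lower at an unadjusted p under 0.05, 7 of 63 beside 5.68% of all genes. Their median log2 fold change was 0.12, and WT 3 was the lowest or highest library for 52 of the 63, beside 74.7% of all genes. The groups were without overlap for 12 of the 63, beside 12.4% of all genes. For a gene named by its p-value, the lack of overlap restates the same values. Beside the 6 higher genes, neutrophil markers summed to between 123 and 178 CPM in WT and between 178.5 and 447 CPM in FOXO3 KO libraries, and mesothelial and fibroblast markers to between 30.9 and 51.2 CPM and between 78.1 and 343 CPM; their part in these differences was not tested. By list the median was -0.01 for retinoid X receptors and cofactors (10 tested), 0.13 for other LXR targets (17), 0.10 for cholesterol release and transport ahead of efflux (12), 0.37 for oxysterol enzymes and lipoprotein partners (6), 0.43 for lipoprotein receptors and relatives (5), 0.20 for the SREBP2 arm of sterol sensing (8) and -0.01 for other lysophospholipid acyltransferases (5). Without WT 3 these medians were, in the same order, 0.03, 0.18, -0.10, 0.06, 0.14, 0.11 and 0.38, so several of them rested on that library.

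**Figure D4:**
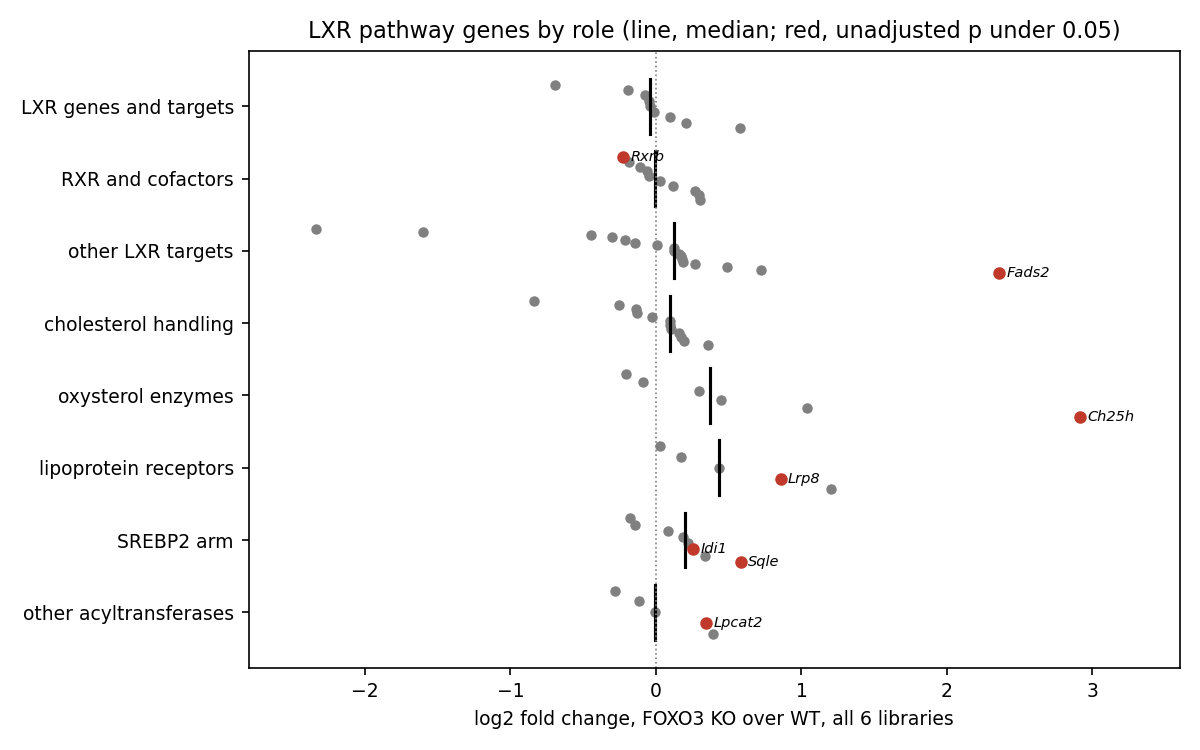
Log2 fold change, FOXO3 KO over WT, of each tested gene of the pathway over all 6 libraries (horizontal axis), by role, with the median of each list as a line and genes with an unadjusted p under 0.05 in red and named. All 7 red genes lie above 0 except Rxrb (-0.23).

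Of the receptor partners, Rxrb, a retinoid X receptor gene, was at 52.2, 52.4 and 57.4 CPM in WT 1, 2 and 3 and at 43.9, 46.1 and 48.4 CPM in FOXO3 KO 1, 2 and 3. Its groups did not overlap, at a log2 fold change of -0.23 (SE 0.09, unadjusted p = 0.0407, adjusted p = 0.839). Larger in size were the corepressor gene Nrip1 (0.30) and the macrophage retinoid X receptor gene Rxra (0.29), neither at an unadjusted p under 0.05. Rxra was, like Abca1, lowest in WT 3, at 133, 136 and 70.8 CPM in WT 1, 2 and 3 and at 133, 156 and 129 CPM in FOXO3 KO 1, 2 and 3.

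Among the other LXR targets, Fads2, a fatty acid desaturase gene, was higher in all FOXO3 KO libraries but low throughout, at 0.776, 0.565 and 0.559 CPM in WT 1, 2 and 3 and at 2.20, 5.11 and 2.52 CPM in FOXO3 KO 1, 2 and 3. The groups did not overlap, and the highest value was that of the library labelled FOXO3 KO 2. The log2 fold change of 2.36 (SE 0.42) had an adjusted p of 0.714 with edgeR and of 0.000402 with DESeq2, so that the call depended on the tool. The study lists Fads2 among its genes raised in FOXO3-deficient macrophages. Without the library labelled FOXO3 KO 2, the log2 fold change was 1.89 with edgeR (adjusted p = 0.727) and 1.90 with DESeq2 (adjusted p = 0.00238). Mesothelial and fibroblast markers were also highest in that library, at a summed 343 CPM against 30.9 to 51.2 CPM in WT and 78.1 and 151 CPM in FOXO3 KO 1 and 3, and their part in the Fads2 values was not tested. Apoc1, the neighbour of Apoe, was at most 4.93 CPM except for 35.3 CPM in WT 3 (log2 fold change -2.34, unadjusted p = 0.21). Scd1, a stearoyl-CoA desaturase gene, was at 95.8, 45.4 and 326 CPM in WT 1, 2 and 3 and at 16.8, 56.6 and 80.5 CPM in FOXO3 KO 1, 2 and 3 (log2 fold change -1.60, unadjusted p = 0.107), with WT 3 again the highest. Abcg8, an exporter of liver and gut, had no count in any library.

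Of the genes that release and move cholesterol ahead of efflux, WT 3 was the lowest library for 7 of 12 and the highest for 4, Gramd1a, Gramd1c, Stard4 and Abca7. Over all genes WT 3 was the lowest library for 37.5% and the highest for 37.2%. Lipa, lysosomal acid lipase, was at 1171, 1412 and 449 CPM in WT 1, 2 and 3 and at 1206, 1161 and 877 CPM in FOXO3 KO 1, 2 and 3. None of the 12 had an unadjusted p under 0.05, and the largest log2 fold changes in size were those of Gramd1c (-0.84), Star (0.36) and Gramd1a (-0.26), which encode sterol carriers. Gramd1c was low, at 1.41, 1.09 and 5.20 CPM in WT 1, 2 and 3 and at 1.28, 1.42 and 1.62 CPM in FOXO3 KO 1, 2 and 3. Star was at most 2.48 CPM. Without WT 3 the log2 fold changes were 0.21 for Gramd1c, 0.53 for Star and 0.02 for Gramd1a. Of the 6 oxysterol enzymes and lipoprotein partners tested, 4 were higher and 2 lower in FOXO3 KO. Ch25h, cholesterol 25-hydroxylase, was at 0.0831, 0.0706 and 0 CPM in WT 1, 2 and 3 and at 0.354, 0.438 and 0.42 CPM in FOXO3 KO 1, 2 and 3 (unadjusted p = 0.00536, adjusted p = 0.714), too few reads for a firm fold. Cyp7b1 (1.04) and Lcat (0.45) had an unadjusted p over 0.05 and were also low in every library. Cyp27a1, an oxysterol enzyme gene at a higher level, was at 84.5, 74.6 and 44.2 CPM in WT 1, 2 and 3. In FOXO3 KO 1, 2 and 3 it was at 50.8, 72.9 and 52.2 CPM. Its log2 fold change with edgeR was -0.21 (unadjusted p = 0.47), and -0.43 without WT 3 (unadjusted p = 0.0418, adjusted p = 0.569).

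Mylip acts on lipoprotein receptors, and of that list Lrp8 alone had an unadjusted p under 0.05. It was at 1.91, 2.29 and 1.23 CPM in WT 1, 2 and 3 and at 3.15, 3.21 and 3.48 CPM in FOXO3 KO 1, 2 and 3, without overlap (log2 fold change 0.86, SE 0.29, unadjusted p = 0.0245, adjusted p = 0.788). Vldlr was at most 1.53 CPM (log2 fold change 1.20, unadjusted p = 0.174), and the abundant Lrp1 was at 2805, 2377 and 1118 CPM in WT 1, 2 and 3 and at 2927, 2994 and 2581 CPM in FOXO3 KO 1, 2 and 3 (log2 fold change 0.43, unadjusted p = 0.282).

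In the SREBP2 arm, which is active when sterols are scarce and so runs opposite to LXR, Sqle and Idi1, both enzymes of sterol synthesis, had an unadjusted p under 0.05. Sqle was at 29.5, 26.7 and 19.6 CPM in WT 1, 2 and 3 and at 43.9, 33.3 and 36.6 CPM in FOXO3 KO 1, 2 and 3 (log2 fold change 0.58, SE 0.19, unadjusted p = 0.0194, adjusted p = 0.763). Idi1 was at 35.4, 35.6 and 35.8 CPM in WT and at 44.4, 37.9 and 45.2 CPM in FOXO3 KO (log2 fold change 0.26, unadjusted p = 0.0404, adjusted p = 0.839). Both were without overlap, and in both the library labelled FOXO3 KO 2 was the FOXO3 KO value nearest to WT. Of the 8 genes tested in this list, 4 were higher and 1 lower without overlap, beside 7% and 5.36% of all genes. By the sign of the log2 fold change, 6 of the 8 were higher and 2 lower in FOXO3 KO. Hmgcs1, an earlier enzyme of the same route, had a log2 fold change of 0.33 (unadjusted p = 0.156). Of the relatives of Lpcat3, Lpcat2 was at 37.2, 40.8 and 47.1 CPM in WT and at 47.7, 50.1 and 61.0 CPM in FOXO3 KO (log2 fold change 0.34, unadjusted p = 0.0474, adjusted p = 0.839), while Mboat1 (0.39) and Lpcat1 (-0.28) had an unadjusted p over 0.05.

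Genes that followed Abca1 most closely over the 6 libraries, among 9286 genes with a mean of at least 10 CPM, were Dnajc30 (Pearson r 0.998), Ttc12 (0.998) and Adssl1 (0.995). Among those nearest to Apoe were Cdk5 (0.986) and Zc3h10 (0.981). These correlations describe 6 libraries that share the low values of WT 3, in the case of Abca1, and the high value of WT 2, in the case of Apoe, and no test was attached to them.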

How the data were processed

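The authors deposited a table of estimated counts per gene symbol for 6 libraries, without normalization. The submitters' processing notes name STAR 2.6.1d, kallisto 0.46.0, DESeq2 and the mm10 build, without giving their roles, and no source used here says whether counting used strand. Values were rounded to whole counts, which 81.4% of them already met to within 0.01. Groups came from the genotype labels. Genes were filtered with filterByExpr, scaled by TMM and compared with the quasi-likelihood test of edgeR 4.0.16 in R 4.3.3, and p-values were adjusted by Benjamini-Hochberg across every gene in the fit. Each standard error is the absolute log2 fold change divided by the root of its F statistic. Calls needed a fold change above 1.5 and an adjusted p below 0.05, as in the study's methods. No pair of libraries agreed within sampling noise (the smallest chi-square per degree of freedom over 15 pairs was 19.6). The test was tried on simulated counts first. The 9 genes, the lists and the tests were chosen with earlier results of these data known. All 9 genes are named, as is Foxo3, and from each list the genes with an unadjusted p under 0.05, or the 3 largest log2 fold changes in size where fewer than 3 have one. Lipa, Stard4, Abca7, Srebf1, Fasn, Cyp27a1 and Abcg8 were named after their values were seen. Some genes that these rules name are not reported here. Of marker lists sums only are given. Likeness used Pearson's r of log2(CPM + 0.5). Alternatives were DESeq2 1.42.0, limma-voom (limma 3.58.1), RLE factors, no filter and a stricter filter (10 counts in 3 libraries), a block for the replicate number, leave-one-out fits, and an Xist covariate. Gene positions and exon lengths are those of GENCODE M21 on GRCm38, the assembly of mm10, and promoter sequences those of RefSeq on GRCm38.p6. Protein sequences were not used here.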

Additional observations from a re-analysis of the deposited data

How the results depend on the processing

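Of 162 alternative values, 18 for each of the 9 genes, 134 kept the direction and, save for the scaling to macrophage markers, which has no test, the side of the threshold, and 27 reversed a difference that no fit called. Nr1h2, Apoc2 and Mylip kept 1 direction throughout. With RLE factors and with either filter on low counts, the 9 genes kept their direction, except Pltp with no filter (0.0029). The tool decided the calls over all genes, where edgeR called 0 in each direction and DESeq2 153 higher and 7 lower, 81 and 27 without the library labelled FOXO3 KO 2, and 151 and 14 without WT 3, the last with 1 of the 9 genes, Apoc2. The Xist covariate without the library labelled FOXO3 KO 2 called 11 higher and 6 lower, and leaving out that library and WT 3 called 3 and 1. Foxo3 was called lower in both of these edgeR fits, at log2 fold changes of -4.35 (adjusted p = 0.00536) and -4.64 (adjusted p = 0.00182). Leaving out 1 library at a time called 0 to 0 genes and moved the log2 fold change of Abca1 between -0.05 (without WT 3) and 0.41, Abcg1 between -0.55 (-0.67 without both libraries) and 0.057, Nr1h3 between -0.45 (-0.48 without both) and 0.44, Apoe between -0.13 (-0.17 without both) and 0.020, Apoc2 between 0.33 and 0.95, Mylip between -0.90 and -0.30, Lpcat3 between -0.05 (without WT 3) and 0.19, and Pltp between -0.22 (-0.24 without both) and 0.12.

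No label says that the replicate numbers pair the libraries. In their deviations from group means, same-numbered libraries correlated at 0.26, -0.07 and 0.52, and differently numbered ones at between -0.52 and 0.55. Deviations within a group are not independent of each other, so these values cannot decide whether the numbers pair the libraries. The fit with the replicate number as a block called 0 genes and turned Nr1h3 to 0.21 and Pltp to 0.031. Other reversals, whose cause was not tested, were those of Nr1h3 with limma-voom (0.22), the Xist covariate (0.19, and 0.42 without the library labelled FOXO3 KO 2) and relative to the summed macrophage markers (0.19); of Pltp under the same 4 settings (0.025, 0.031, 0.098 and 0.0052); of Abcg1 with the Xist covariate without that library (0.074); and of Abca1 and Lpcat3 with DESeq2 without WT 3 (-0.062 and -0.062) or without both libraries (-0.11 and -0.055). The fits without both libraries, DESeq2 without WT 3 and the scaling to macrophage markers were added after the data were seen. Over all 6 libraries, the 95% intervals of Nr1h3, Abcg1 and Pltp did not exclude a change of 1.5-fold in either direction. Those of Abca1 and Apoc2 did not exclude a level 1.5-fold higher in FOXO3 KO, and those of Apoe and Mylip a level 1.5-fold lower. The intervals of Nr1h2 and Lpcat3 alone excluded such a change in both directions. Without the library labelled FOXO3 KO 2, the interval of Lpcat3 ran from 0.755-fold to 1.51-fold and did not exclude a level 1.5-fold higher. That of Nr1h2, from 0.777-fold to 1.19-fold, still excluded both.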
